A study of Mus musculus with 24 samples.

Results

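miR-103-3p and miR-107-3p are a pair of microRNAs whose mature sequences differ at a single base. They were chosen by name as the rows mmu-miR-103-3p and mmu-miR-107-3p of the deposited arrays, which makes 2 of the 1881 mouse microRNAs measured, and both were called detected on all 24 arrays. The 24 samples were populations of viable tetraploid hepatocytes from 3 untreated male C57BL/6J mice aged 3 months, fed ad libitum under a reversed light cycle. Cells carrying CD45 or CD31 had been removed, and the rest were sorted by CD73, a pericentral surface protein, and E-cadherin, a periportal one, into zones 1 (most pericentral) to 8 (most periportal). Each population held 50000 cells, and each zone had 1 population from each mouse, so n = 3 mice per zone. No sample was a control or carried a genetic change, and hepatocytes of other ploidy were not sampled.

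Both microRNAs are made inside genes for pantothenate kinases, the enzymes that start coenzyme A synthesis. In mice they are known to act on insulin sensitivity in liver and fat, in part through caveolin-1, a protein that stabilises the insulin receptor. A microRNA finds its targets mainly through its seed, bases 2 to 8 from the 5′ end, so microRNAs with the same seed are expected to share many targets.

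The mature sequences are shown because the base that separates them lies outside the seed, and because the arrays had to tell them apart by it. They were taken from RefSeq (GRCm38.p6), are written 5′ to 3′, and have the seed in capitals:
miR-107-3p: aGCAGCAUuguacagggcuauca
miR-103-3p: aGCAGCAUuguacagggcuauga
Of 23 bases 22 were identical, and the difference was G22C, with positions counted from the 5′ end and the base of miR-103-3p given first. No other mature mouse microRNA of the RefSeq table had the seed GCAGCAU. miR-107-3p comes from Mir107, at chr19:34820687-34820773 on the minus strand within Pank1, and its mature bases lie at chr19:34820700-34820722. miR-103-3p comes from a pair of genes on the plus strand, Mir103-1 at chr11:35782396-35782481 within Pank3 and Mir103-2 at chr2:131288052-131288137 within Pank2. Its mature bases lie at chr11:35782447-35782469 and chr2:131288103-131288125. Each host gene ran on the same strand as its microRNA gene. The precursors are shown with the 3p arm in capitals, since the arrays cannot say from which of the Mir103 precursors the signal came:
Mir107: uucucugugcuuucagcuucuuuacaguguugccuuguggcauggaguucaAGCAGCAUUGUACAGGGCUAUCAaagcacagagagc
Mir103-1: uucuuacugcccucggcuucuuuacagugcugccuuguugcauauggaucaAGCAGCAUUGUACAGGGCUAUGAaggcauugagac
Mir103-2: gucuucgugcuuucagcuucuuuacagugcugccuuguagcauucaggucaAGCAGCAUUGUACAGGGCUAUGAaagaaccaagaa
The other arms, miR-107-5p and miR-103-1-5p, were on the array and were called detected on 0 of 24 arrays each. miR-103-2-5p was not on the array under that name. Because of the near identity of the 3p arms, RNA of one could bind the probes of the other, and this was not tested.

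Each mouse had a slide of its own for its 8 arrays, so mouse and slide cannot be told apart. Zones 1 to 4 lay in the first slide row and zones 5 to 8 in the second on every slide, so position on the slide and side of the lobule cannot be told apart either. Between 248 and 368 microRNAs were called detected per array, and the summed signal ran between 57773 and 138147 intensity units. Precision is limited by how many arrays there were. All 5 hepatocyte microRNAs checked, led by miR-122-5p, were detected on every array, with a summed deposited signal of 10958 to 21349 units in zones 5 to 8 and 5802 to 14505 in zones 1 to 4. Of 20 microRNAs of leukocytes, endothelium, stellate cells, erythroid cells and biliary epithelium 2 were detected on any array. These were the endothelial miR-126a-3p, called on 9 arrays in zones 5 to 8 and on 7 in zones 1 to 4, at 10.9 units or less, and miR-200b-3p, on 1 array.

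In scaled signal, miR-107-3p averaged lower in zones 5 to 8 than in zones 1 to 4 in every mouse. Signals are given in intensity units after scaling each array to its 75th percentile over the 198 microRNAs detected on all arrays. In zones 1 to 8 of mouse 1 the scaled signal of miR-107-3p was 156, 130.2, 110.5, 103, 113, 111, 113 and 103. In mouse 2 it was 135, 181, 171, 112, 140.5, 119, 119 and 117, and in mouse 3 it was 148, 142, 144, 135, 93.7, 101, 118 and 121. The highest value lay in zone 1 in mice 1 and 3 and in zone 2 in mouse 2, and the lowest in zone 8 of mouse 1, zone 4 of mouse 2 and zone 5 of mouse 3. The sides overlapped: 3 of 12 arrays of zones 5 to 8 were below every array of zones 1 to 4, and 6 of 12 arrays of zones 1 to 4 were above every array of zones 5 to 8. Within mice the signal before scaling was 88.0 to 155 units in mouse 1, 90.5 to 176 in mouse 2 and 122 to 183 in mouse 3, with a deposited error of 7.40% to 7.55% of the signal.

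miR-103-3p was dimmer on every array and flatter. In zones 1 to 8 of mouse 1 its scaled signal was 65.8, 55.3, 47.8, 46.9, 52.9, 57.2, 55.9 and 52.7. In mouse 2 it was 59.2, 74.6, 71.8, 51.3, 64.4, 60.9, 59.8 and 57.1, and in mouse 3 it was 65.9, 63.6, 64.0, 61.4, 48.8, 53.5, 61.7 and 63.3. Zone 1 was high and zone 4 low in mouse 1, zones 2 and 3 were high in mouse 2, and in mouse 3 zones 5 and 6 were low and zones 7 and 8 were back near the values of zones 1 to 4. The sides overlapped, and by the same counts it had 0 arrays of zones 5 to 8 below and 4 arrays of zones 1 to 4 above all of the other side. The deposited error was 7.56% to 8.11% of the signal. Which of the pair was the more abundant cannot be read from this, because probes differ in brightness per molecule.

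**Figure D1:**
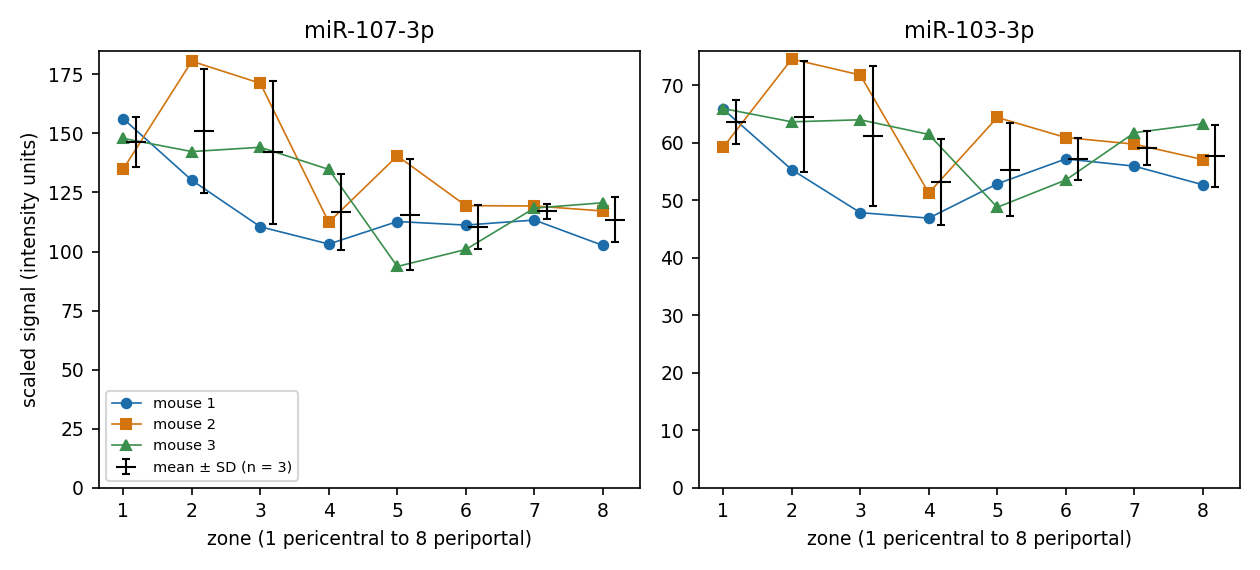
Scaled signal (intensity units, axes from 0) of miR-107-3p and miR-103-3p by zone, with 1 line per mouse and black bars for the mean ± SD of 3 mice. miR-107-3p averaged 113 ± 9.57 at zone 8, against 146 ± 10.7 at zone 1, while the zone means of miR-103-3p stayed between 53.2 and 64.5.

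Whether each level changed along the axis was asked with a slope of the log2 signal on the zone number, fitted with limma to all 339 microRNAs detected on at least 6 arrays. A slope was called where its adjusted p was under 0.05. This fit had no block for mouse, so it ignored that arrays of a mouse are paired. In it miR-107-3p fell, by 0.45 ± 0.13 log2 units from zone 1 to zone 8 (fitted change ± SE, 24 arrays, limma adjusted p = 0.0206), which is 0.732-fold. With mouse as a block it passed as well (SE 0.12, limma adjusted p = 0.00819), where 16.5% of tested microRNAs fell. With 1 slope per mouse it did not pass (limma adjusted p = 0.154). The slope was -0.061, -0.067 and -0.065 log2 units per zone in mice 1, 2 and 3. For miR-103-3p the fitted change was -0.15 ± 0.12 log2 units, with a 95% interval of -0.40 to 0.10 and limma adjusted p = 0.445, and the slopes of the mice were -0.015, -0.028 and -0.021. The pair thus had 1 of 2 members falling, where 6.49% of all tested microRNAs fell and 10.3% rose. From the most negative slope upwards miR-107-3p was number 58 and miR-103-3p number 157 of 339, and the median slope of all tested was -0.014 per zone. No difference in slope between mice passed the test for either (limma interaction, adjusted p = 0.999 each). In RNA pooled from 50000 cells, fewer cells with a microRNA and less of it per cell cannot be told apart.

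Whether the fall of miR-107-3p passed the test depended on the scaling of the arrays. Its slope was -0.064 per zone with the 75th percentile, -0.053 with quantile normalization (limma adjusted p = 0.0264), -0.044 with the median (0.222), -0.040 with the summed signal (0.225) and -0.031 with no scaling (0.734). The sign was the same under all 5 scalings, and the median slope of all tested microRNAs moved with them between -0.014 and 0.014. The slope of miR-103-3p changed sign with the scaling: it was -0.021 with the 75th percentile, 0.012 with no scaling and 0.0029 with the summed signal. Without mouse 1 and without mouse 3 the fall of miR-107-3p did not pass (limma adjusted p = 0.101 and 0.109, slopes -0.066 and -0.064), nor with mouse as a block and slide row as a further term (slope -0.052 ± 0.036, 0.571), a limma fit in which 0 of the 339 microRNAs passed (19 higher and 18 lower at an unadjusted p under 0.05). With the mouse as the unit, that is with 1 slope per mouse, the slope was the same and limma adjusted p was 0.154, and 0 microRNAs fell (39 at an unadjusted p under 0.05). Within zones 5 to 8 the slope of miR-107-3p was 0.0053 per zone (limma adjusted p = 0.942 in a fit blocked on mouse). Within zones 1 to 4 it was -0.11 per zone (0.393 in the same kind of fit).

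**Figure D2:**
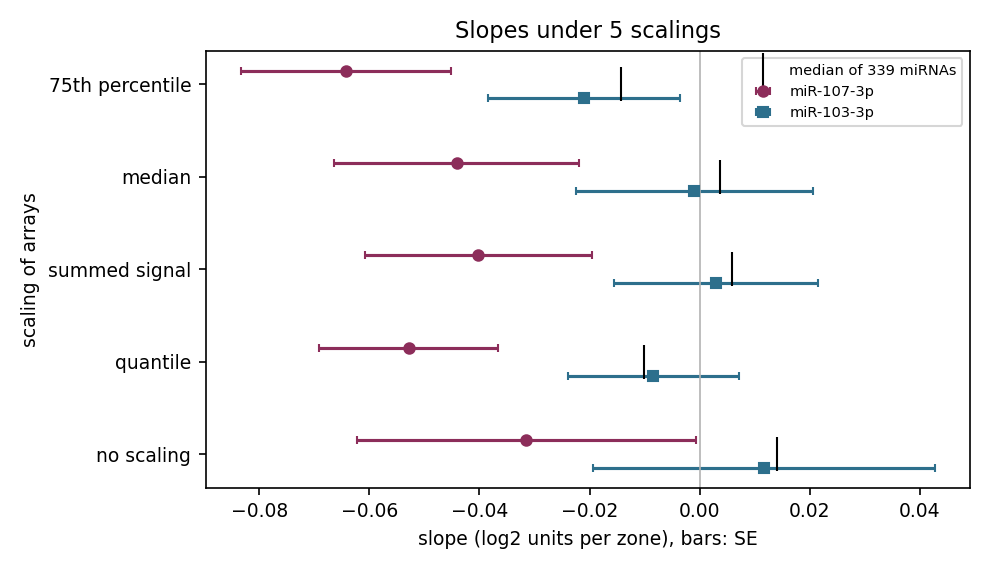
Slope on the zone number (log2 units per zone, bars SE) of miR-107-3p and miR-103-3p under 5 scalings of the arrays, with the median slope of all 339 tested microRNAs as a black tick. miR-107-3p lies below 0 and below miR-103-3p in each, with a difference of -0.044 to -0.043 between them, while miR-103-3p lies on both sides of 0. A factor for an array cancels from this difference, so only quantile normalization could change it.

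Setting the periportal zones against the pericentral zones gave the same order. miR-107-3p averaged 114 ± 11.9 units in zones 5 to 8 and 139 ± 23.5 in zones 1 to 4 (SD, n = 12 arrays of 3 mice each). The log2 difference was -0.27 ± 0.09 (SE, 0.828-fold) and did not pass without a block (limma adjusted p = 0.0511), where 5.9% of tested microRNAs were lower, but passed with mouse as a block (adjusted p = 0.0207), where 14.7% were lower. miR-103-3p averaged 57.3 ± 4.81 units in zones 5 to 8 and 60.6 ± 8.86 in zones 1 to 4, a log2 difference of -0.07 ± 0.08 (95% interval -0.25 to 0.11, limma adjusted p = 0.666). By mouse the difference of miR-107-3p was -0.17, -0.25 and -0.40, and that of miR-103-3p 0.03, -0.07 and -0.17. With no scaling, the summed signal or the median, the difference of miR-107-3p kept its sign but did not pass.

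Between the ends of the axis neither member passed. miR-107-3p reached 113 ± 9.57 units in zone 8, against 146 ± 10.7 units in zone 1 (SD over 3 mice), a log2 difference of -0.37 ± 0.18 (95% interval -0.75 to 0.02, limma adjusted p = 0.345), where 0.59% of tested microRNAs were lower and 4.72% higher. miR-103-3p reached 57.7 ± 5.33 units in zone 8, against 63.7 ± 3.85 units in zone 1, a log2 difference of -0.14 ± 0.17 (95% interval -0.50 to 0.21, adjusted p = 0.739). In the moderated F test over 8 zones, which called 5.31% of tested microRNAs, limma adjusted p was 0.659 for miR-107-3p and 1.00 for miR-103-3p. Blocking on mouse left both members short of the threshold between the ends (limma adjusted p = 0.156 for miR-107-3p and 0.539 for miR-103-3p, with 2.06% of tested microRNAs lower and 7.67% higher) and in the F test (0.257 and 0.684, with 9.14% called). Ranked by mean log2 signal, the zones ran 2, 1, 3, 7, 4, 5, 8 and 6 for miR-107-3p and 2, 1, 3, 7, 8, 6, 5 and 4 for miR-103-3p. Zones 2, 1 and 3 led in both. In neither ranking did a neighbouring pair of zones differ by more than the larger of their SDs (0 of 7 pairs each), but these SDs ignore the pairing within mice. Within mice, zone 4 lay below zone 3 in all 3 for both members. The mean log2 difference was -0.27 (range -0.61 to -0.10) for miR-107-3p and -0.19 (-0.49 to -0.03) for miR-103-3p. No other step along the axis had the same sign in all 3 mice for either member, and these steps were not tested.

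The members were next set against each other, since the log2 ratio of their signals on an array does not depend on a scaling factor for that array. The ratio, miR-107-3p over miR-103-3p, was lower in zones 5 to 8 than in zones 1 to 4 in all 3 mice. In zones 1 to 8 of mouse 1 the log2 ratio was 1.25, 1.23, 1.21, 1.14, 1.09, 0.96, 1.02 and 0.96. In mouse 2 it was 1.19, 1.28, 1.25, 1.13, 1.13, 0.97, 1.00 and 1.04, and in mouse 3 it was 1.17, 1.16, 1.17, 1.13, 0.94, 0.91, 0.94 and 0.93. The sides did not overlap: the highest ratio of zones 5 to 8 was 1.125 and the lowest of zones 1 to 4 was 1.132, so all 12 periportal arrays lay below all 12 pericentral arrays. The margin between zones 5 and 4 of mouse 2 was narrow, while mouse 3 dropped clearly there. How many other pairs of microRNAs separate the sides in this way was not counted. The separation is thus not shown to be particular to this pair.

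The slope of the log2 ratio was -0.043 ± 0.005 per zone (SE, 24 arrays), a fitted change of -0.30 ± 0.03 from zone 1 to zone 8. With zone numbers permuted within mice the two-sided permutation p was 1e-05, the smallest that 100000 resamples can give. The slope was -0.046, -0.039 and -0.044 in mice 1, 2 and 3. The mean log2 ratio was 0.99 ± 0.07 in zones 5 to 8 and 1.19 ± 0.05 in zones 1 to 4 (SD, n = 12 arrays each), a difference of -0.20 ± 0.02 (SE), so that the signal of miR-107-3p relative to miR-103-3p was 0.870-fold as high. Leaving out any mouse, zone or single array kept the slope between -0.049 and -0.040, with permutation p of at most 8e-05. The ratio of signals is not a ratio of amounts, and its course shows an unequal change, not which member moved.

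Within zones 5 to 8 and within zones 1 to 4, that is within 1 slide row each, the ratio's slope was also negative but did not pass on either side alone. It was -0.019 ± 0.013 per zone in zones 5 to 8 (exact permutation within mice, p = 0.185) and -0.021 ± 0.011 in zones 1 to 4 (p = 0.0946). Between neighbouring zones the ratio was lower in all 3 mice at 3 steps: zone 4 against zone 3, by a mean of -0.08 (range -0.12 to -0.04), zone 5 against zone 4, -0.08 (-0.19 to -0.01), and zone 6 against zone 5, -0.10 (-0.15 to -0.03). It was higher in all 3 mice at 1 step, zone 7 against zone 6, by a mean of 0.04 (0.02 to 0.06). The step between zones 5 and 4 lies between slide rows and the others inside a row, and these differences were not tested. With mouse as a block and slide row as a term, chosen after seeing the data, the slope of the ratio over both sides was -0.020 ± 0.008 per zone (exact permutation within mice and rows, two-sided p = 0.0262), less than the -0.043 without the row. For the difference between the sides, row and zone cannot be told apart. The summed array signal moved with the sides differently by mouse. It was 57773 to 65437 units in zones 5 to 8 and 65807 to 94368 in zones 1 to 4 of mouse 1, 80636 to 106374 and 66473 to 99274 in mouse 2, and 115569 to 138147 and 101278 to 137113 in mouse 3, and its part in the ratio was not tested. From the highest mean ratio the zones ran 2, 3, 1, 4, 5, 7, 8 and 6, and 1 of 7 neighbouring pairs, zones 1 and 4, differed by more than the larger SD.

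**Figure D3:**
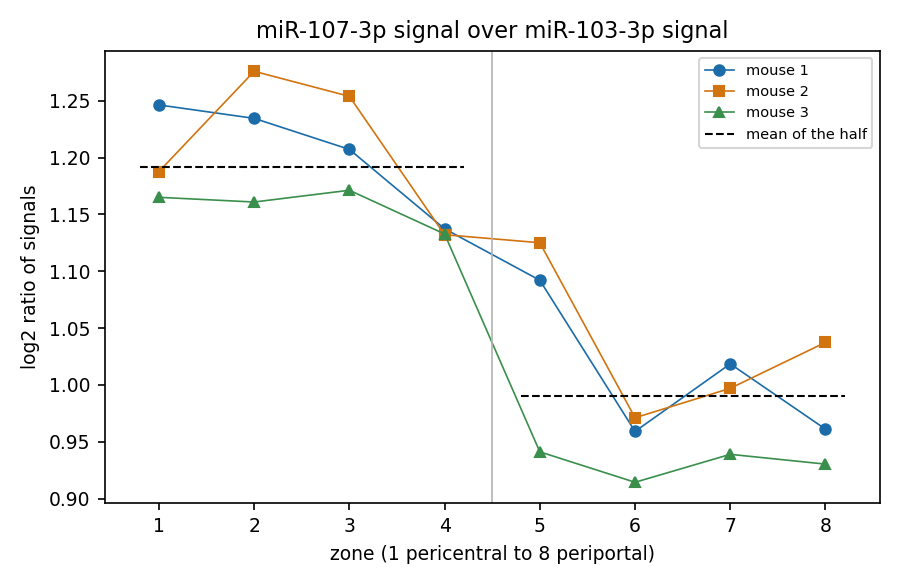
Log2 ratio of the miR-107-3p signal to the miR-103-3p signal by zone, with 1 line per mouse, dashed lines for the means (0.99 in zones 5 to 8 and 1.19 in zones 1 to 4) and a grey line where the slide row changes. All 12 points of zones 5 to 8 lie below all 12 points of zones 1 to 4, and zone 6 is the lowest point of mice 1, 2 and 3.

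The microRNAs most like each member were taken by Pearson's r over the 24 arrays after subtracting each mouse's mean, among 197 others detected on all arrays. These values are descriptive, since arrays share mice, slides and the scaling. The trend along the zones was left in, so microRNAs with a slope like the member's were favoured in the choice. For miR-107-3p they were miR-20a-5p (r = 0.93), miR-20b-5p (0.91), miR-151-5p (0.90), miR-103-3p (0.89) and miR-93-5p (0.89), against a median of 0.15. Of these miR-20a-5p and miR-151-5p fell as well, by 0.45 ± 0.15 and 0.53 ± 0.17 log2 units from zone 1 to zone 8 (limma adjusted p = 0.0392 and 0.0260), and miR-20b-5p passed with mouse as a block alone (0.0666 without and 0.0354 with it). Over all tested 6.49% fell without a block and 16.5% with it, and the choice by likeness makes a shared fall no separate evidence. For miR-103-3p they were miR-107-3p (0.89), miR-23b-3p (0.88), miR-365-3p (0.87), miR-130a-3p (0.86) and miR-16-5p (0.84), against a median of 0.10. Of these miR-107-3p alone passed the slope test, and miR-365-3p had a slope of -0.005 ± 0.023 per zone.

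miR-107-3p and miR-103-3p belong to a group with miR-15 and miR-16 that shares the letters AGCAGC near the 5′ end. Of the 11 listed microRNAs 10 held AGCAGC within bases 1 to 8 of the RNA, as did 13 of the 1679 mature mouse microRNAs of the RefSeq table (0.774%). miR-497b did not hold it. The sequences below show the offset between the branches, with the seed in capitals:
miR-107-3p: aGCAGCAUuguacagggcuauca
miR-16-5p: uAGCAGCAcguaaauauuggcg
miR-15a-5p: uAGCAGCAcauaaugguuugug
miR-15b-5p: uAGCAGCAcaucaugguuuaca
miR-195a-5p: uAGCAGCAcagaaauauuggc
In miR-107-3p and miR-103-3p the motif starts at base 1, and in the other 8 it starts at base 2, which shifts the seed by a base. Of the 11, all on the array, 8 were detected on some array and 7 were tested. Only miR-107-3p passed (0 rose, 1 fell, 6 did not pass), where 10.3% of all tested rose and 6.49% fell. The count was the same when mouse was a block, where 14.5% of all tested rose and 16.5% fell. All 7 slopes were below 0, with a median of -0.047 per zone. Over all tested the median was -0.014, so most tested slopes were below 0 too. The 7 include the pair and miR-497b, which lacks the motif. They share the scaling that moves this median, and the slope of miR-103-3p changed sign with the scaling. This list too was chosen with earlier results of these data known.

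Among the others of the group, miR-16-5p, known for restraining the cell cycle, had a fitted change of -0.33 ± 0.15 log2 units from zone 1 to zone 8 (SE, limma adjusted p = 0.144). miR-15a-5p and miR-15b-5p, each encoded beside a copy of miR-16, had changes of -0.22 ± 0.18 and -0.06 ± 0.16. miR-195a-5p, called on 8 arrays in zones 5 to 8 and on 6 in zones 1 to 4, had a change of -0.48 ± 0.50, and miR-497b, detected on 8 arrays, -0.39 ± 0.93, both with undetected arrays set to the floor of 1.12 units. miR-497a-5p was detected on 0 arrays of zones 5 to 8 and 4 of zones 1 to 4, too few to be tested. miR-195b, miR-322-5p and miR-503-5p were detected on 0 of 24 arrays each.

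**Figure D4:**
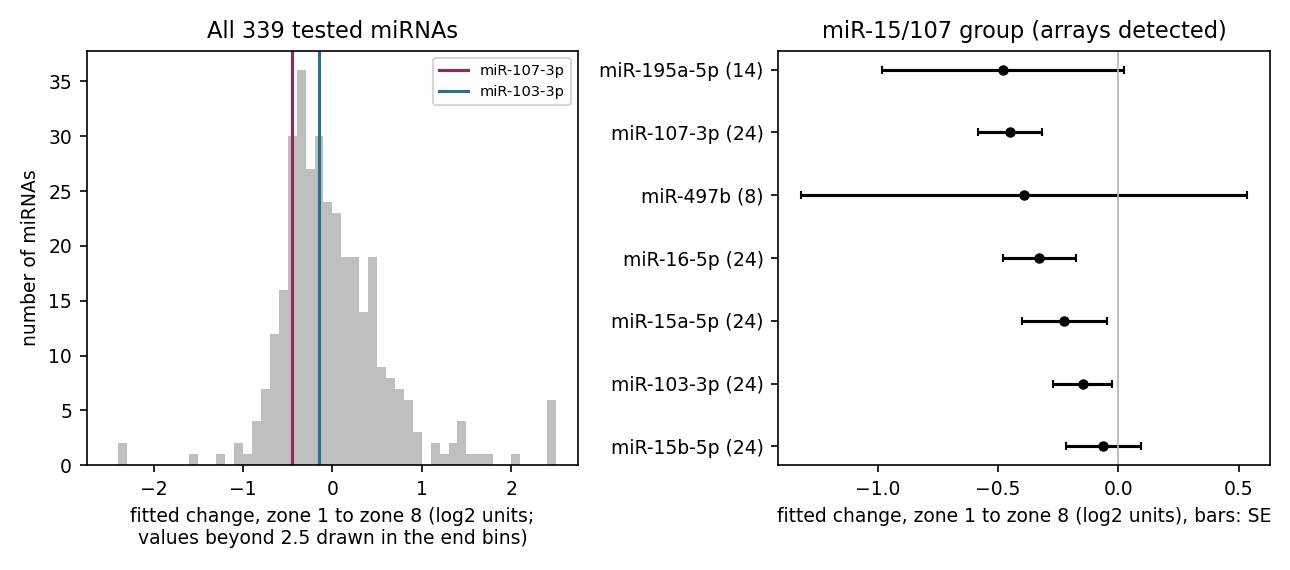
Left, the fitted change from zone 1 to zone 8 (log2 units) of all 339 tested microRNAs, with miR-107-3p at -0.45 and miR-103-3p at -0.15 marked. Right, the same quantity with its SE for the 7 tested members of the group with miR-15 and miR-16, with the number of arrays on which each was detected in brackets. All 7 lie below 0, as do most of the 339, and miR-107-3p alone passed the test.

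Of 19 microRNAs listed for insulin action and glucose metabolism, the pair included, 14 were tested. In this list 4 rose, 1 fell and 9 did not pass, against 10.3% rising and 6.49% falling over all tested, and in the fit blocked on mouse 8 rose and 1 fell, against 14.5% and 16.5%. The median slope was 0.045 per zone, against -0.014 over all tested. This list was chosen with earlier results of these data known, and its counts include miR-802-5p, so they are descriptive only. miR-107-3p was the member that fell. Those that rose were miR-802-5p, which is known in mice to impair insulin action and was called on 12 arrays in zones 5 to 8 and on 0 in zones 1 to 4, miR-122-5p (fitted change 0.72 ± 0.13), miR-26a-5p, known in mouse liver to favour insulin sensitivity (0.62 ± 0.13), and miR-378a-5p (0.39 ± 0.13). miR-802-5p passed the filter on detection through zones 5 to 8 alone and stood at the floor in zones 1 to 4, so it had to differ and its p is not given. The limma adjusted p of the other 3 ran between 0.000159 for miR-122-5p and 0.0388 for miR-378a-5p. miR-29a-3p, miR-34a-5p and miR-33-5p had changes of 0.38 ± 0.14, 0.25 ± 0.18 and 0.67 ± 0.33, and miR-130a-3p -0.29 ± 0.12, with limma adjusted p from 0.0593 to 0.379. With mouse as a block miR-29a-3p (limma adjusted p = 0.0273) and miR-33-5p were among the 8 that rose. miR-33-5p was called on 8 arrays in zones 5 to 8 and on 4 in zones 1 to 4. Its mean scaled signal was 1.80 in zone 8 and 0.861 in zone 1, near the floor of 1.12 units. Its change thus rests in part on which arrays were called detected, and its p with the block is not given. miR-143-3p, miR-375-3p, miR-96-5p, miR-181a-5p and miR-223-3p were detected on 0 of 24 arrays.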

How the data were processed

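The 24 sorted populations gave total RNA that carried Cy3 on Agilent arrays of 1 colour, as the labels' protocols state. Used from the deposited files were intensity values (the total gene signal of each microRNA and its error) and the detection call. The submitters' processing notes name Agilent Feature Extraction, whose version is not given in the sources used here. Undetected microRNAs stand at 0.1 with an error of 1. No scaling between arrays is recorded per the file headers.

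Groups and mouse numbers came from the labels. After removal of 21 control rows, signals were scaled to the 75th percentile over 198 microRNAs detected on all arrays, raised to a floor of 1.12 and taken to log2. The 339 detected on at least 6 arrays were fitted with limma 3.58.1 in R 4.3.3, without a block, p-values being adjusted by Benjamini-Hochberg and called under 0.05. Mouse numbers pair the arrays, since arrays that share a number share the animal (median correlation of deviations from zone means 0.610, lowest 0.254). The ratio was tested by permutation within mice in Python 3.11.15, with numpy 2.4.6. The limma slope fits were tested on simulated data with independent noise for each microRNA and array. The simulations held no scaling error and no slide row effect, so neither was checked. Figures used matplotlib 3.10.9.

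Alternatives were other scalings, filters, floor, variance model, mouse as a block, slide row, and leaving out mice, zones or arrays. Named microRNAs are the pair, their other arms, the group with miR-15 and miR-16, members of the insulin and glucose list that pass and up to 4 that do not, with those detected on 0 arrays named besides, and the 5 most like each member. The members and lists were chosen with earlier results of these data known.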

Additional observations from a re-analysis of the deposited data

How the results depend on the processing

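The alternatives run for the log2 ratio were leaving out mice, zones or arrays, permuting without the block, the difference between the sides, each side alone, and slide row with the replicate block. Its slope was below 0 in all of these and passed in all but zones 1 to 4 alone (-0.021) and zones 5 to 8 alone (-0.019), with fewer arrays. With slide row it was -0.020 (exact permutation p = 0.0262; over all its alternatives p ran between 1e-05 and 0.185). Permuting over all 24 arrays with no replicate block gave -0.043 and the same permutation p of 1e-05.

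The slope of miR-107-3p did not pass with no scaling (-0.031, and the same with the replicate block), scaling to the summed signal (-0.040), scaling to the median (-0.044, also with the replicate block), slide row as a term with the replicate block (-0.052), 1 slope per mouse (-0.064), without zone 1 (-0.064), zone 2 (-0.056) or zone 6 (-0.061), or in zones 1 to 4 alone with the replicate block (-0.109). It was 0.0053 in zones 5 to 8 alone with that block. With the summed signal and the replicate block together it passed (limma adjusted p = 0.0479). Without 1 replicate it was -0.066 to -0.063, and passed without replicate 2 (limma adjusted p = 0.0295) but not without replicate 1 (0.101) or 3 (0.109). Without single arrays, chosen after seeing the data, it was -0.070 to -0.056, and passed each time (limma adjusted p at most 0.0420). Over 52 alternatives its limma adjusted p ran between 0.00819 and 0.942. The difference of miR-107-3p between zones 5 to 8 and zones 1 to 4, -0.27 in the main fit, passed in 4 of 12 alternatives. These were the replicate block, microRNAs detected on all 24 arrays or on at least 1 array, and eBayes with trend and robust. It did not pass with no scaling (-0.17, limma adjusted p = 0.715), the summed signal (-0.20, 0.301) or the median (-0.18, 0.317). Nor did it pass with quantile normalization (0.0514), a floor 4 times lower (0.0534), or without replicate 1 (0.128), 2 (0.0622) or 3 (0.371).

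For miR-103-3p the slope was 0.012 with no scaling and 0.0029 with the summed signal, with or without the replicate block, and 0.025 in zones 5 to 8 alone. Its difference between zones 5 to 8 and zones 1 to 4 was 0.033, 0.0045 and 0.023 with no scaling, the summed signal and the median, and zone 8 minus zone 1 was 0.22 and 0.061 with no scaling and the summed signal. None of these passed. For miR-107-3p, zone 8 minus zone 1 was -0.0032 with no scaling and -0.16 with the summed signal. It was -0.25 with the median and -0.41 with quantile normalization, against -0.37 in the main fit. Neither this difference nor the F tests passed under any alternative. The replicate block changed no other call for the pair.

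Of all tested microRNAs 35 rose and 22 fell. The number falling was 56 with the replicate block, 3 with no scaling, 6 with the summed signal, 10 with the median, 0 with 1 slope per mouse, 9 to 25 without 1 replicate, and 14, 12, 10 and 13 without zones 3, 6, 7 and 8. With the replicate block kept, it was 0 with slide row as a term, 1 in zones 1 to 4 and 0 in zones 5 to 8. The number rising was 12 with 1 slope per mouse and, with the replicate block kept, 0 with slide row, 6 in zones 1 to 4 and 0 in zones 5 to 8. Where limma called 0, an unadjusted p under 0.05 was met by 39 falling with 1 slope per mouse, 19 rising and 18 falling with slide row, and 21 rising and 22 falling in zones 5 to 8. The cause of these shifts was not tested. Both members lay far above the floor, so detection did not limit them.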
